A study of Drosophila melanogaster with 6 samples.

Results

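The genes described here are MSBP and a set of ecdysone receptor and response genes, named by their gene symbols: MSBP, EcR, usp, Eip75B, Eip74EF, Eip71CD, ftz-f1, Hr39, br and shd. Of these 10 genes, 9 were matched to a row of the 17558 genes in the table. Eip71CD was matched through its synonym, under the current name MsrA, and br was not matched and is not analysed here. They were selected on gene name, with their FPKM values and the difference between the groups in these same 6 libraries already known. Their differences between the groups are therefore given as a description, with no p-value, and support nothing beyond themselves.

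RNA sequencing was done on adult male Drosophila melanogaster, 12 h after an injection of the Gram-positive bacterium M. luteus. The 3 control libraries came from flies with the genotype Gal80ts; Tub-Gal4/P{CaryP}attP40, which carry the driver over a landing site. The 3 other libraries came from flies with the genotype Gal80ts; Tub> CR46018, labelled as overexpressing the long non-coding RNA CR46018. Both groups thus carried the temperature-sensitive repressor Gal80ts and the Tub driver, which is active in most tissues, and both were infected. The labels do not give the age of the flies, the number pooled in a library or whether libraries came from separate cultures, so p-values measure only the spread between these libraries, which may be technical. The design does not separate overexpression from other differences of genotype between the groups.

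Ecdysone is the steroid hormone that times moulting and metamorphosis in insects, and it continues to act in adults on reproduction, metabolism, stress and immunity. The hormone is hydroxylated in peripheral tissues to its active form, which binds a heterodimer of the nuclear receptors EcR and Ultraspiracle (Usp). The bound receptor induces a small group of early transcription factors, among them those encoded by Eip74EF, Eip75B and br, and these in turn act on later genes. MSBP encodes a membrane steroid binding protein with a cytochrome b5-like domain, which binds ecdysone and dampens its signal in cultured fly cells.

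Recovered read totals ran from 15634926 to 18035715 per library. CR46018 itself (asRNA:CR46018) had 0 reads in each control library and 3, 1 and 0 reads in the libraries labelled overexpression 1, 2 and 3. Its level therefore does not check the labels, and overexpression is used here as the name of the group from its label. Testis markers summed to between 1873 and 2101 FPKM per library, and 4 of 5 accessory gland markers were present while Acp95EF was at 0 in all 6. The female markers Yp1, Yp2, Vm26Aa and Cp36 were at or near 0 and Yp3 was not. In bulk libraries such as these, fewer cells of a type and less RNA per cell cannot be told apart.

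MSBP had a higher level in the overexpressing flies, and it was the most abundant of the set in both groups. Its level was 59.9, 57.0 and 58.2 FPKM (fragments per kilobase of exon, scaled by library size) in control replicates 1 to 3 and 177.2, 164.4 and 168.3 FPKM in overexpression replicates 1 to 3. Every overexpression library lay above every control library, and the closest pair of libraries still differed 2.75-fold. The mean was 58.4 ± 1.45 FPKM in controls and 169.9 ± 6.54 FPKM with overexpression (SD, n = 3), a ratio of 2.91. On the log2(FPKM + 1) scale the difference was 1.53 ± 0.05 (SE), the 45th by size of the 12251 genes tested. These levels rest on 1532 to 1731 reads per control library and 4826 to 5478 reads per overexpression library. The SD among controls was about that of read counting alone (1.44 FPKM), while the SD among overexpression libraries exceeded its counting value of 2.38 FPKM. Among marker lists, some gut and renal genes were higher and others lower. Enterocyte markers summed to 5304 to 6305 FPKM in controls and 6808 to 7141 FPKM with overexpression. Of the 5, 4 were higher and 1 was lower. Only betaTry was higher past the threshold (limma adjusted p under 0.05 over all tested genes). alphaTry was at 2918 in controls against 3466 FPKM with overexpression (limma adjusted p = 0.0505). Jon65Aiv was at 1720 against 2188 FPKM and nub at 2.77 against 3.54 FPKM, without passing it. Jon99Cii was lower, at 253.7 against 172.2 FPKM, also without passing it. Malpighian tubule markers summed to 141.5 to 143.4 FPKM in controls and 158.5 to 171.9 FPKM with overexpression, where 1 of 4, Uro, rose from 44.96 to 75.29 FPKM. Without Uro the sums overlapped, at 94.5 to 99.9 FPKM in controls and 81.02 to 99.6 FPKM with overexpression. Irk3 was lower, at 38.9 in controls against 35.2 FPKM with overexpression, and so was salt, at 49.9 against 42.1 FPKM. Vha16-5 was higher, at 8.86 against 11.1 FPKM, and none of these genes passed the threshold. None of the genes on either list was at 0 in all libraries, and their part in the MSBP difference was not tested.

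**Figure D1:**
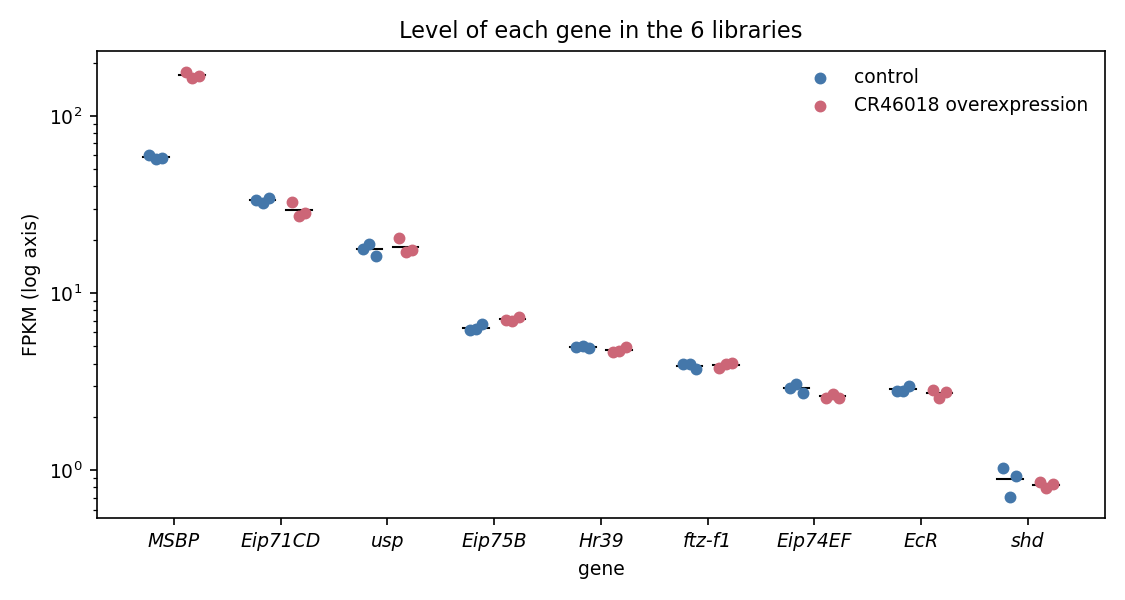
FPKM on a log axis for each of the 9 genes, with 1 point per library (blue, control; red, CR46018 overexpression) and a black line at the mean of 3 libraries. MSBP is at 57 to 59.9 FPKM in controls and at 164.4 to 177.2 FPKM in overexpressing flies, while the points of the other genes lie close together across the groups.

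The receptor genes were at like levels in both groups. EcR, which encodes the hormone-binding receptor, was at 2.79, 2.81 and 2.98 FPKM in controls and 2.85, 2.55 and 2.76 FPKM with overexpression. The gene of its partner, usp, was at 17.8, 19.0 and 16.2 FPKM in controls and 20.5, 17.1 and 17.4 FPKM with overexpression. The groups overlapped for both genes. The log2 difference was -0.05 ± 0.09 (SE) for EcR, which turned positive when FPKM was rescaled to a common total per library, and 0.05 ± 0.09 for usp, which turned negative without control replicate 3 or overexpression replicate 1. Per length, usp was 6.19 ± 0.68 times as abundant as EcR in controls and 6.73 ± 0.439 times in overexpressing flies (SD, n = 3). MSBP was 20.4 ± 0.985 times as abundant as EcR in controls and 62.5 ± 1.81 times in overexpressing flies.

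The annotation places limits on some of these levels. EcR spans 81.2 kb on chromosome 2R, with 6 annotated transcripts from 4 starts, and the table gives 1 value per gene, so the receptor isoforms cannot be told apart. usp shares 265 exonic bases with Actn on its own strand and 196 with CG4313 on the other strand, among 3038 in all. ftz-f1 shares 2521 of its 8581 exonic bases with lncRNA:CR45939 on its own strand. Hr39 shares 61 of 4984 with mir-9374 on its own strand, a gene with no row of its own. Whether the counting used strand is not stated in the labels, so reads in these shared stretches may be assigned to another gene or left out. MSBP, with 1503 exonic bases and 3 transcripts from a single start, overlaps no other annotated gene.

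Among the early response genes, Eip75B encodes a nuclear receptor that binds haem and Eip74EF an ETS-domain transcription factor. Eip75B was at 6.16, 6.28 and 6.69 FPKM in controls and 7.08, 6.94 and 7.37 FPKM with overexpression. All overexpression libraries lay above all controls, with a ratio of the means of 1.12 and a log2 difference of 0.14 ± 0.07 (SE). Eip74EF was at 2.9, 3.06 and 2.74 FPKM in controls and 2.57, 2.7 and 2.57 FPKM with overexpression. Here all overexpression libraries lay below all controls, with a ratio of 0.902 and a log2 difference of -0.11 ± 0.09. The directions were opposite.

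Of the later and tissue-level genes, ftz-f1 encodes a nuclear receptor that sets the competence for the next hormone pulse, and Hr39 a related nuclear receptor. ftz-f1 was at 3.96, 3.96 and 3.73 FPKM in controls and 3.77, 4.01 and 4.02 FPKM with overexpression. Hr39 was at 4.95, 5.02 and 4.89 FPKM in controls and 4.68, 4.72 and 4.99 FPKM with overexpression. The groups overlapped for both. The log2 difference was 0.01 ± 0.08 (SE) for ftz-f1, negative without control replicate 3, and -0.04 ± 0.07 for Hr39, positive after rescaling to a common total.

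Eip71CD, an ecdysone-induced gene that encodes a methionine sulfoxide reductase, had the second highest level. It was at 33.6, 32.2 and 34.5 FPKM in controls and 32.8, 27.3 and 28.4 FPKM with overexpression. Overexpression replicate 1 lay within the control range and the other two below it. The means were 33.4 ± 1.16 and 29.5 ± 2.89 FPKM (SD, n = 3), and the log2 difference was -0.18 ± 0.07 (SE).

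The lowest level was that of shd, which encodes the cytochrome P450 that makes the active hormone. It was at 1.03, 0.71 and 0.928 FPKM in controls and 0.854, 0.794 and 0.834 FPKM with overexpression, so the overexpression libraries lay within the control range. With 41 to 60 reads per library, the SD expected from counting alone was 0.126 FPKM in controls and 0.117 FPKM with overexpression. Its mean over the 6 libraries, 0.859 FPKM, fell below the minimum of 1 FPKM for testing.

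In both groups the order of the mean levels ran from MSBP through Eip71CD, usp, Eip75B, Hr39 and ftz-f1 to shd, which was last. Only EcR and Eip74EF, at 2.86 and 2.9 FPKM in controls and 2.72 and 2.62 FPKM with overexpression, had overlapping libraries as neighbours in that order, and they changed places between the groups.

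Of the 8 members that passed the filter on low values, 1 was higher and 0 were lower at an adjusted p under 0.05, where 8.76% of all tested genes passed, 2.45% higher and 6.31% lower. Groups did not overlap for 3 of the 8 (MSBP, Eip75B and Eip74EF), beside 28.4% of all tested genes. The median log2 difference was -0.01 over the 8 genes, -0.04 over the 7 without MSBP, and -0.002 over all 12251 tested genes; after rescaling to a common total these were 0.07, 0.04 and 0.08. Nothing is read from these counts, since the genes were chosen with this contrast known.

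**Figure D2:**
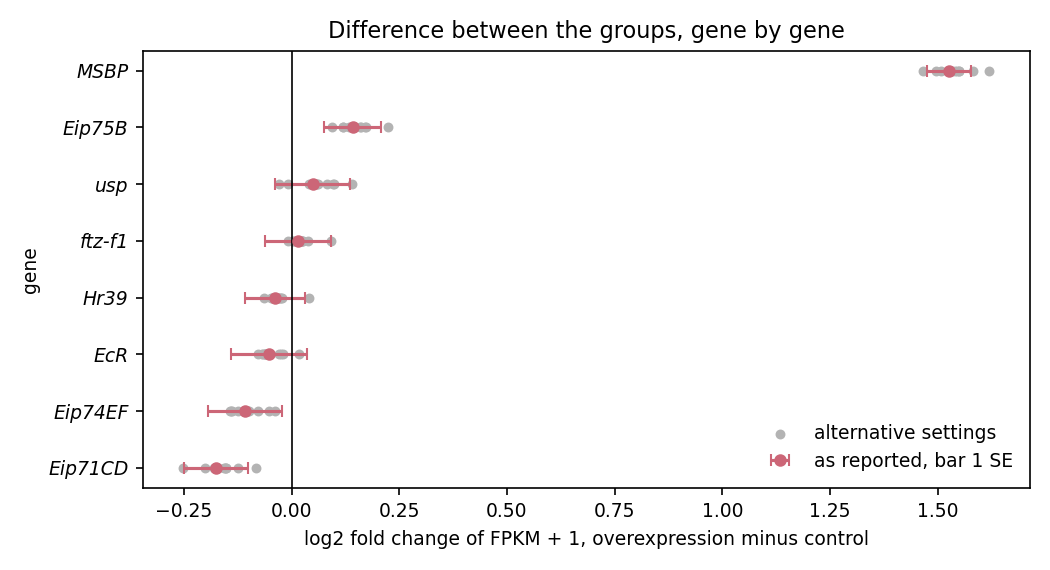
Log2 difference of FPKM + 1, overexpression minus control, for the 8 tested genes; red points are the reported values with bars of 1 SE, and grey points are the values under each alternative setting. MSBP stays between 1.47 and 1.62 under every setting run, and the other 7 genes lie between -0.25 and 0.22.

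MSBP is on the minus strand of chromosome X from 15887567 to 15890109 in dm6. Of the 5 nearest tested genes on each side, all within 35 kb, 0 were higher and 1 was lower, beside 2.45% and 6.31% of all tested genes. The lower one was Gapdh2, a gene of the glycolytic enzyme GAPDH with a close copy (Gapdh1) to which reads could be split, at 294.1 ± 11.6 FPKM in controls and 224.1 ± 5.01 FPKM with overexpression (SD, n = 3; log2 difference -0.39, limma adjusted p = 0.00388). The other 9 genes had log2 differences between -0.13 and 0.22.

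The gene nearest to MSBP is tay, which lies 0.26 kb past its 3' end on the same strand. It was at 6.82, 6.8 and 6.59 FPKM in controls and 8.88, 7.41 and 7.78 FPKM with overexpression, without overlap (log2 difference 0.22 ± 0.08 SE, limma adjusted p = 0.134). With voom on recovered reads its adjusted p was 0.0287, and after rescaling to a common total 0.0372, in a range over 14 alternatives from 0.0287 to 0.27. CG15916, 0.48 kb on the other side and on the plus strand, was at 13.8 ± 2.44 and 12.5 ± 1.8 FPKM (adjusted p = 0.642), and shi, the dynamin gene, was at 37.3 ± 0.516 and 37.8 ± 1.18 FPKM (adjusted p = 0.88).

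**Figure D3:**
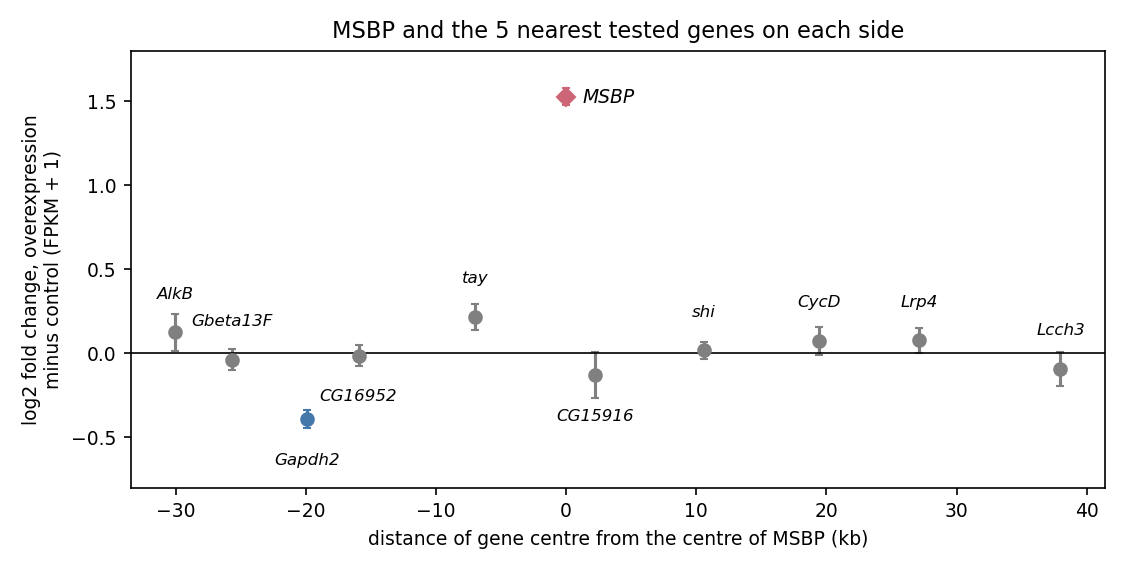
Log2 difference of FPKM + 1, overexpression minus control, with bars of 1 SE, against the distance of each gene's centre from that of MSBP in kb. MSBP stands at 1.53, Gapdh2 (blue, the neighbour past the threshold) at -0.39, and the 9 genes drawn in grey between -0.13 and 0.22.

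The nearest tested genes beside the other members, with genes overlapping them left out, numbered 16, of which 0 were higher and 2 lower. Of all tested genes, 2.45% were higher and 6.31% lower. CG4325, 0.42 kb from usp, fell from 13.5 ± 0.913 to 6.89 ± 0.937 FPKM (SD, n = 3; limma adjusted p = 0.00172). Cyp6w1, a cytochrome P450 gene 4.6 kb from EcR, fell from 23.2 ± 0.572 to 16.4 ± 1.2 FPKM (limma adjusted p = 0.00453). Within the span of EcR lies lncRNA:CR43904, on the other strand and with no shared exonic base, which rose from 0.83 ± 0.166 to 1.75 ± 0.319 FPKM (SD, n = 3; limma adjusted p = 0.0409). That call was lost in 6 of 13 alternatives, with the replicate block (adjusted p = 0.0696) and without any single library but overexpression replicate 1, in a range from 0.0318 to 0.13.

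Other genes of the pathway were taken from lists made by role. Earlier results of these data were known when the lists were made, so the choice may not be independent of them. Over all these lists, 87 genes were in the table and 52 were tested, of which 1 rose and 2 fell, beside the 2.45% and 6.31% of all tested genes. After rescaling to a common total, 4 were higher and 1 was lower. Their median log2 difference was -0.04, and 0.03 after rescaling to a common total.

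Of 10 tested genes of ecdysone synthesis and its control, 0 rose and 1 fell (limma, with unadjusted p under 0.05 for 3 of the 10). It was Npc2a, a sterol carrier gene needed to supply the precursor, with 110.3, 118.1 and 111 FPKM in controls and 97.4, 95 and 85.3 FPKM with overexpression. The groups did not overlap (log2 difference -0.29 ± 0.06 SE, limma adjusted p = 0.0299). The call was lost in 8 of 14 alternatives, including rescaling to a common total (adjusted p = 0.0882), a block for replicate number (adjusted p = 0.0501) and leaving out any library but overexpression replicate 1, in a range from 0.0118 to 0.0951. After rescaling, ecd, a gene needed for hormone production, was called higher in its place, at 12.3 and 14 FPKM (adjusted p = 0.0482; 0.166 without rescaling, and 0.423 at most over the alternatives). By direction alone, 4 of the 10 were higher and 6 lower. The largest difference of the list was that of Cyp6t3, at 1.21 ± 0.218 and 2.03 ± 0.398 FPKM. Its groups did not overlap (log2 difference 0.45 ± 0.14 SE, limma adjusted p = 0.0877). nvd, below the minimum for testing, was at 0.382 ± 0.0724 and 0.834 ± 0.165 FPKM without overlap, on 123 reads in all. The enzyme genes spo and spok had 2 and 4 reads over all 6 libraries.

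Of 5 tested genes of ecdysone inactivation and transport, 0 rose and 1 fell. Eo, which encodes ecdysone oxidase, an enzyme that converts the hormone to an oxidised form, was at 3.76, 3.45 and 4.08 FPKM in controls and 0.499, 1.66 and 1.23 FPKM with overexpression. All overexpression libraries lay below all controls, at 3.76 ± 0.313 against 1.13 ± 0.587 FPKM (SD, n = 3; limma adjusted p = 0.00965). The log2 difference of -1.20 ± 0.20 (SE) depended on the pseudocount, at -0.52 with 5 and -1.78 with 0.1, and was -1.89 with voom. Oatp74D, the ecdysone importer gene, was at 8.62 ± 0.259 and 7.51 ± 0.856 FPKM (adjusted p = 0.241). Cyp18a1, whose product also inactivates the hormone, was at 4.92 ± 0.229 and 3.97 ± 0.742 FPKM (adjusted p = 0.222).

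Fat body, muscle and some hemocyte markers were also lower in overexpressing flies. Of 6 fat body markers, the 4 tested all fell, and the summed level of all 6 was 412.2 to 506.1 FPKM in controls and 196.7 to 253.8 FPKM in overexpressing flies, with none at 0 in all libraries. Muscle markers summed to 1228 to 1618 FPKM in controls and 1112 to 1200 FPKM in overexpressing flies, with 3 of 6 lower past the threshold. Hemocyte markers summed to 50.1 to 51.9 FPKM in controls and 34.3 to 47.8 FPKM in overexpressing flies, with 1 of 5 tested, NimC1, lower past it. The yolk protein gene Yp3 was also lower, at 33.4, 31.3 and 32.6 FPKM in controls and 12.3, 7.88 and 9.88 FPKM with overexpression. None of the muscle and hemocyte markers was at 0 in all libraries, and the part of these tissues in the falls of Npc2a and Eo was not tested. Neuronal markers summed to 77.9 to 82.8 FPKM in controls and 75.3 to 86.5 FPKM in overexpressing flies, with 0 of 5 past the threshold.

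Of 12 cofactors of EcR and Usp, 0 passed in either direction (limma; unadjusted p was under 0.05 for 2 of them, and voom called 0). The coactivator gene tai was at 6.97 ± 0.116 and 7.02 ± 0.149 FPKM (adjusted p = 0.954). Iswi, a chromatin remodeller gene with the highest level of the list, was at 16.9 ± 1.005 and 19 ± 0.378 FPKM (adjusted p = 0.152; 0.0478 after rescaling, the lowest of 14 alternatives, which reached 0.339).

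Of 10 other early and early-late genes tested, 0 passed (limma; unadjusted p was under 0.05 for 2 of them, and voom called 0). After rescaling, 1 was called higher, Eip63F-1, at 14.8 and 16.4 FPKM (adjusted p = 0.0436; 0.214 without rescaling, and 0.485 at most over the alternatives). The highest level was that of Eip55E, under its current name Cth a gene of cysteine metabolism, at 46.8 ± 1.41 and 41.1 ± 2.6 FPKM (adjusted p = 0.108). Eip93F, which encodes a transcription factor of the pupal to adult switch, was at 6.79 ± 0.264 and 6.84 ± 0.326 FPKM (adjusted p = 0.954). Of 10 other nuclear receptor genes tested, 0 passed (limma; unadjusted p was under 0.05 for 2 of them, and voom called 0). Both of these 2 genes are also on the early or the cofactor list, so the counts share genes. Hnf4 had the highest level, at 19.4 ± 1.19 and 17.6 ± 1.08 FPKM (adjusted p = 0.32).

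Of 8 late and effector genes tested, 1 rose and 0 fell. ImpL2, an ecdysone-induced gene whose secreted product binds insulin-like peptides, was at 69.3, 74.5 and 71.2 FPKM in controls and 109.3, 90.8 and 112 FPKM with overexpression. The groups did not overlap, at 71.7 ± 2.62 against 104 ± 11.5 FPKM (SD, n = 3; log2 difference 0.53 ± 0.08 SE, limma adjusted p = 0.00784). Fbp2 was at 10.1, 2.14 and 0.425 FPKM in controls and 0.362, 0.836 and 0.342 FPKM with overexpression. The groups overlapped, and control replicate 1 lay far above the other libraries (limma adjusted p = 0.262).

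The Eig71E and salivary glue genes had few reads. Of 11 Eig71E genes 1 was tested, Eig71Eb at 2.25 ± 0.634 and 1.46 ± 0.194 FPKM (limma adjusted p = 0.198), and 2 were at 0 in all 6 libraries. None of the 6 salivary glue genes reached a mean of 1 FPKM. The highest was Sgs8, at 0.392 FPKM in controls and 0.417 FPKM with overexpression.

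**Figure D4:**
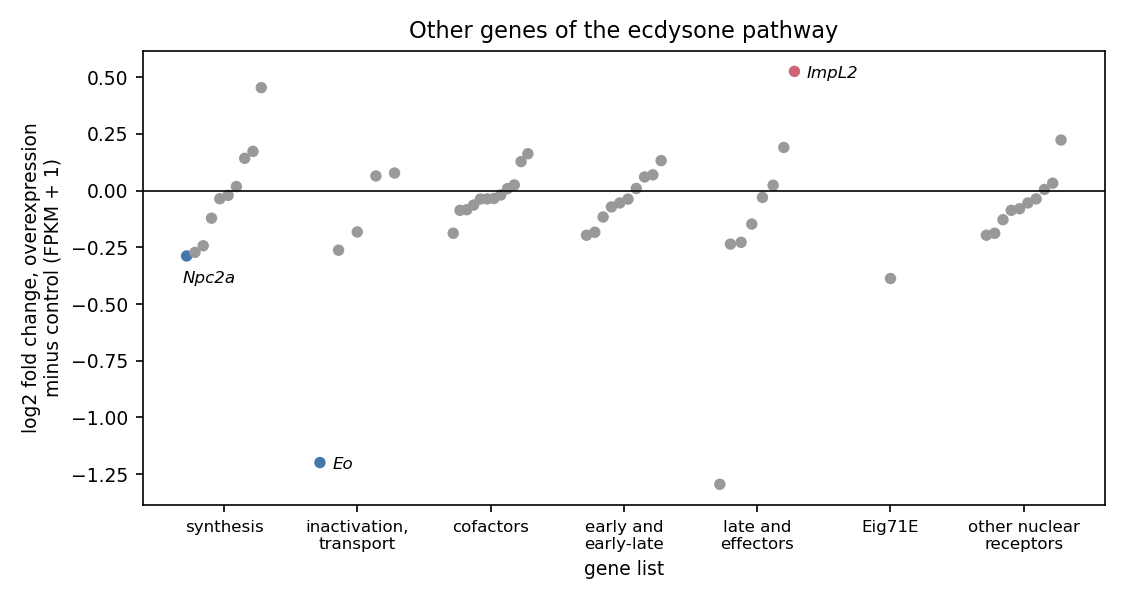
Log2 difference of FPKM + 1, overexpression minus control, for each tested gene of 7 pathway lists (x axis), ordered by value within a list; genes on 2 lists appear in both. ImpL2 (red) at 0.53 was higher, Eo at -1.20 and Npc2a at -0.29 (blue) were lower, and the grey genes did not pass the threshold.

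The 5 genes whose level over the 6 libraries was most like that of MSBP were Rtel1, His2Av, Cnx14D, CG14419 and CecA2, with Pearson correlations of log2(FPKM + 1) from 0.991 to 0.994. Rtel1, Cnx14D and CG14419 lie on chromosome X, as does MSBP, and His2Av and CecA2 on 3R. The part of the chromosome was not tested. These correlations describe 6 libraries that fall into the 2 groups. Any gene that is higher with overexpression by much more than its spread within the groups therefore scores high. The size of the difference varied widely among them. His2Av, a histone variant gene, was at 40.9 ± 0.704 and 49.3 ± 0.24 FPKM (SD, n = 3), and Rtel1, a helicase gene, at 2.23 ± 0.103 and 3.41 ± 0.0973 FPKM. CecA2, a cecropin antimicrobial peptide gene with close copies to which reads could be split, was at 93.3 ± 11.2 and 347.8 ± 47.2 FPKM. Cnx14D was at 0.188 ± 0.081 and 3.6 ± 0.391 FPKM. CG14419 had 0 reads in every control library and was at 12.3, 16.2 and 18.0 FPKM with overexpression, the largest log2 difference of all tested genes. For shd the 5 highest correlations ran from 0.968 to 0.98 (lncRNA:CR46087, CG30416, mRpL51, Wdr33 and CG17883). The SD of shd in controls, 0.165 FPKM, was close to its counting SD, and these 5 were picked as the highest of many genes over 6 libraries, so nothing is read from them.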

How the data were processed

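Per the labels' protocols, polyadenylated RNA was sequenced in paired ends, aligned with HISAT2 2.0.5 and counted per gene with featureCounts 1.5.0-p3; the submitters' processing notes name dm6 as the build. Which annotation was counted, whether strand was used and how FPKM was scaled are not stated there. The authors deposited FPKM, 1 column per library.

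Symbols, coordinates and exonic lengths came from the Ensembl annotation of the same assembly. With these lengths, FPKM gave whole reads in all 6 libraries for 97.6% of genes above 0 (tolerance 0.01 reads), and these reads give the depths quoted. Genes with a mean of at least 1 FPKM (12251) entered a limma fit on log2(FPKM + 1) with a trend of variance on mean (limma 3.58.1, R 4.3.3), and two-sided p-values were adjusted by Benjamini-Hochberg over all of them and a threshold of 0.05. That scale understates the change of low genes. The procedure was tested on simulated data. Nonoverlap means that all libraries of one group lay above all of the other.

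The members and lists were chosen with earlier results of these data known. The genes named are the members, up to 4 genes past the threshold and the most abundant gene of each list. The neighbours of MSBP and the 5 genes most like MSBP and shd are named as well. The marker genes named singly were chosen after their values were seen. So were tai, Eip93F, Cyp18a1, spo, spok, Cyp6t3, nvd, Fbp2, CG4325, Cyp6w1, lncRNA:CR43904, ecd and Eip63F-1. Alternatives were pseudocounts of 0.1 and 5, no filter, a minimum of 5 FPKM, rescaling to a common FPKM total, quantile normalization, voom on recovered reads, the replicate number as a block, and leaving out each library.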

Additional observations from a re-analysis of the deposited data

How the results depend on the processing

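Over the 14 alternatives the log2 difference of MSBP ran from 1.47 to 1.62. The count of all genes called, 1073, ranged from 563 to 914 when 1 library was left out, with 622 without control replicate 1, 598 without control replicate 2 and 563 without overexpression replicate 3. Of these calls 28% were higher, against 63.1% after rescaling to a common FPKM total and 38% with quantile normalization. The 3 calls among pathway genes (1 higher, 2 lower) became 5 after rescaling (4 higher, 1 lower), and 2 to 3 without 1 library. The 3 calls among neighbours (0 higher, 3 lower) became 5 after rescaling and 5 with voom (2 higher, 3 lower in each). FPKM totals ran from 694593 to 708815 in controls and from 646862 to 668227 with overexpression. Rescaling to a common total therefore raised overexpression values relative to controls. With it the median log2 difference of all tested genes moved from -0.002 to 0.082. The cause of the unequal totals was not tested, nor was that of the added calls with voom. Signs turned for EcR, usp, ftz-f1, Hr39 and the MSBP neighbours Gbeta13F, CG16952 and shi. After rescaling, log2 differences were 0.0176 for EcR, 0.0403 for Hr39, 0.0545 for Gbeta13F and 0.0744 for CG16952. Without 1 library they ranged from -0.0298 to 0.0989 for usp, -0.0083 to 0.0387 for ftz-f1, -0.0741 to 0.0164 for Gbeta13F, -0.0527 to 0.0071 for CG16952 and -0.0066 to 0.0362 for shi. Deviations from the group means in same-numbered libraries had correlations of 0.046, -0.076 and 0.026. With 3 libraries per group, these values cannot show whether same-numbered libraries shared a batch or culture. With the replicate block 835 genes were called, with 2 pathway genes and 3 neighbours. At 41 to 60 reads per library, depth limits what can be said of shd.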
